A study of Mus musculus with 7 samples.

Results

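The retinoic acid pathway of the mouse testis was examined through 9 genes that make, bind, break down, sense or respond to retinoic acid, out of 19719 genes listed for RNA of total testis. The 9 genes were chosen by name, although with earlier results of these data known. They are *Rdh10*, *Aldh1a1* and *Aldh1a2* of synthesis, *Crabp1* and *Cyp26b1* of binding and breakdown, the receptors *Rara* and *Rarg*, and *Stra8* and *Meioc* of entry into meiosis, and all 9 passed the filter on low values. The study asked how loss of *Rlim*, an X-linked gene for a ubiquitin ligase that acts on transcription, changed the RNA of the testis. RNA-seq gave 3 control and 4 Rlim-KO libraries of C57BL/6 males, littermates at 8 weeks of age. The controls are labelled WT and carry a floxed *Rlim* allele without Cre (fl/Y). In Rlim-KO males (cKO/Y Sox2-Cre) a Sox2-Cre transgene deleted the floxed allele. Sox2-Cre acts in the epiblast, so that germ cells and somatic cells of the testis both lost *Rlim*. The same floxed allele thus underlies both groups. The labels give 2 batches. Batch 2 held controls 1 and 2 with Rlim-KO 1 and 2, and batch 1 held control 3 with Rlim-KO 3 and 4. The labels do not say that each library is a separate animal, so the p-values measure the spread between these libraries.

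In the testis, retinol from the blood is oxidised to retinaldehyde and then to retinoic acid, which binds nuclear receptors that sit with RXR partners on response elements of target genes. Retinoic acid made by Sertoli cells and later by spermatocytes comes in pulses along the seminiferous tubule, while CYP26 enzymes of the tubule wall break it down. The pulse drives spermatogonia to differentiate and then, through STRA8, to enter meiosis.

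Values are given as deposited, in CPM, where reads are divided by a library size that was itself scaled. Listed genes took 2822168 to 8633399 reads in each library. For a gene listed at 0, an expected count of up to 3 reads is possible, which is 0.301 to 0.945 CPM depending on the library and covers counting error only. The labels were first checked with *Rlim*, which had a mean level of 77.2 ± 19.8 CPM (SD) over 3 control libraries and 27.7 ± 7.58 CPM (SD) over 4 Rlim-KO libraries, a log2 fold change of -1.38 (SE 0.16, adjusted p = 0.00870, limma with Benjamini-Hochberg adjustment). On the first principal component of 11996 genes, which held 53.8% of the variance, Rlim-KO 2 (score -0.352) and control 1 (-0.296) stood at one end and Rlim-KO 3 (0.364) at the other. In Rlim-KO 1, 1 ribosomal RNA gene took 19.3% of the CPM sum. Another, the mitochondrial *mt-Rnr2*, took 17.7% in control 1, 17.1% in control 2 and 16.8% in Rlim-KO 2. It took 8.08% in control 3, and 9.21%, 5.06% and 7.67% in Rlim-KO 1, 3 and 4. Markers of spermatids, with a summed level of 11740 to 18170 CPM for the 12 of 12 genes of elongating spermatids, and of Sertoli cells, at 819 to 1244 CPM for 19 of 20 genes, were present in every library, as the label of testis has it.

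None of the 9 genes differed between the genotypes past an adjusted p of 0.05 (limma, Benjamini-Hochberg over 19400 genes), against 1 gene lower (0.00515% of genes tested, *Rlim* itself) and 0 higher (0%). At an unadjusted p under 0.05, 1 of the 9 genes passed, *Stra8*, which was lower in Rlim-KO testes, against 1.37% of all genes lower and 1.22% higher. In none of the 9 genes did all Rlim-KO libraries lie outside the range of all control libraries, which 1.59% of all genes did on the lower side and 1.34% on the upper side. The median log2 fold change of the 9 genes was 0.089, beside -0.0055 over all genes tested. The sizes that these data allow differ between the genes, and are given for each.

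**Figure D1:**
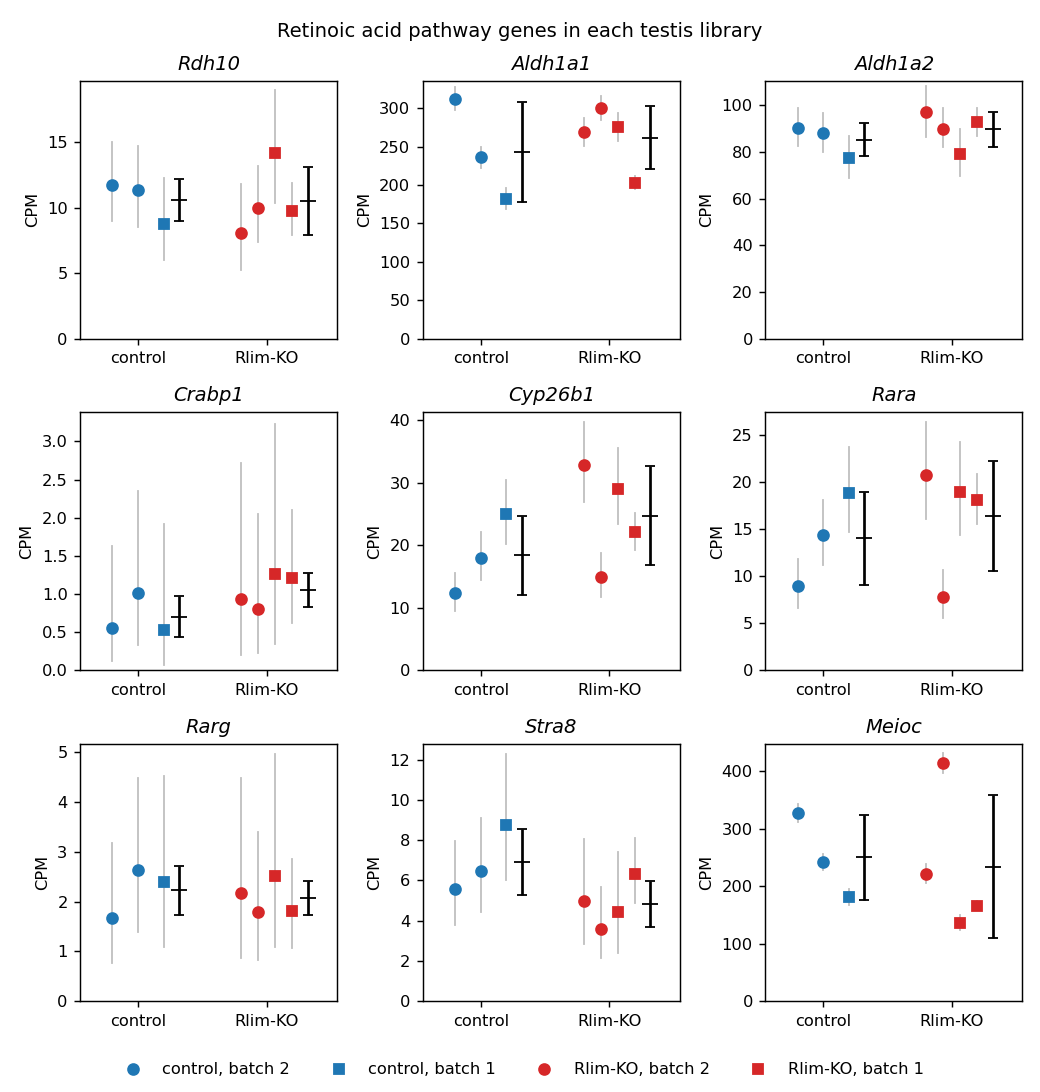
CPM of the 9 genes in each of 7 testis libraries, with circles for batch 2 and squares for batch 1, grey lines for the 95% Poisson interval of the reads, and black bars for mean ± SD of 3 control and 4 Rlim-KO libraries. The groups overlap in every panel, and *Meioc* ranges from 136 to 414 CPM within the Rlim-KO group alone.

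*Stra8* encodes the factor through which retinoic acid starts meiosis, in late spermatogonia and preleptotene spermatocytes. The gene lies on the forward strand of GRCm38 at chr6:34920163-34939344, with 10 exonic regions and 1803 exonic bases. The 250 bases before its RefSeq start, at position 34920948, hold 2 matches to AGGTCA, the half-site of a retinoic acid response element, at -194 to -189 and at -38 to -33. Both matches lie inside the second exon of the longer GENCODE transcript Stra8-201, in its 5′ untranslated region. The matches are shown with the bases around them, from RefSeq (GRCm38.p6), with the half-site in capitals, beside the 1 other match found, before the RefSeq start of *Rarg*, where GENCODE places no transcript. *Rarg* lies on the reverse strand and its match on the strand opposite to the gene, so that the gene's strand, as printed, reads TGACCT.
Stra8, chr6:34920742-34920771, forward strand: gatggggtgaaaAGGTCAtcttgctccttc
Stra8, chr6:34920898-34920927, forward strand: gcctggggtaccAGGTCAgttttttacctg
Rarg, chr15:102257730-102257759, reverse strand: agcccaggacacTGACCTctgccagctctg

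The same window was searched on both strands for all genes. AGGTCA was found in 14% of 32851 windows, and 2 or more matches in 1.36%. For the 9 genes, 8 had a window, 13 in all, and *Rdh10* had none. Direct repeats spaced by 1, 2 or 5 bases, with half-sites of the form AGGTCA or of the variants AGTTCA as well as GGGTCA and also GGTTCA, were in no window of these genes and in 0.164%, 0.174% and 0.0883% of all windows. A match is a description of the letters, and not a site of binding.

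*Stra8* RNA was at 5.58, 6.46 and 8.75 CPM in controls 1 to 3. Libraries Rlim-KO 1 to 4 had 4.96, 3.59, 4.41 and 6.32 CPM. The lowest 3 libraries were all Rlim-KO, and the groups overlapped through Rlim-KO 4, which lay above control 1. Group levels were 6.93 ± 1.64 CPM (SD, n = 3) in control and 4.82 ± 1.15 CPM (SD, n = 4) in Rlim-KO testes. Its log2 fold change was -0.55 (SE 0.26, 95% interval -1.09 to -0.0035, unadjusted p = 0.0487, adjusted p = 1.00 by limma with Benjamini-Hochberg adjustment), or 0.684-fold with an interval of 0.469 to 0.998. The difference thus passed the unadjusted threshold and failed the adjusted one. Within batch 2 it was -0.46 and within batch 1 -0.68. In each batch every Rlim-KO library was below every control library, a pattern noted after the values were seen and shared by 4.22% of all genes. The opposite pattern was held by none of the 9 genes and by 3.44% of all genes. The genotype effects in the 2 batches differed by -0.22 (SE 0.54, adjusted p = 1.00 by limma).

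*Stra8* was counted from few reads, 30 to 33 in control and 14 to 63 in Rlim-KO libraries. The coefficient of variation between libraries was 23.6% in control and 23.9% in Rlim-KO testes, where counting alone gives 18% and 21.5%. Most of the spread within each group was thus of the size of counting error. Over 24 other ways of processing, the log2 fold change of *Stra8* stayed between -0.68 and -0.45, while its unadjusted p ranged from 0.0225 to 0.243, was under 0.05 in 9 of them, and its adjusted p ranged from 0.808 to 1. The unadjusted p rose to 0.210 without control 3, to 0.114 without Rlim-KO 2 and to 0.110 without Rlim-KO 3 (limma).

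In bulk RNA, fewer cells of a type and less RNA per cell cannot be told apart. Summed levels of markers of the cells around *Stra8* overlapped between the groups. Genes of differentiating spermatogonia (10 of 10 listed) summed to 229 to 296 CPM in control and 245 to 310 CPM in Rlim-KO libraries. Those of undifferentiated spermatogonia (12 of 17 listed) summed to 102 to 108 and 90.1 to 115 CPM. No listed marker of either type was at 0 in any library. *Dmrtb1* alone made up 144 to 228 CPM of the first sum. In the same list *Ccnd2*, a cyclin of spermatogonia, was at 7.73 ± 3.21 CPM (SD) over the controls and 11.9 ± 3.56 CPM (SD) over the Rlim-KO libraries, opposite in direction to *Stra8*. It lay above the controls in both Rlim-KO libraries of each batch, which 3.44% of all genes did. Its log2 fold change was 0.74 (SE 0.23, unadjusted p = 0.00478, adjusted p = 1.00 by limma). It was the 1 gene of the list at an unadjusted p under 0.05, against 1.22% of all genes higher. Of the 10 genes 3 were below 0 and 7 above, with a median of 0.10. Within batch 2, 5 of them were below 0, and within batch 1 it was 4. The part of cell numbers in the *Stra8* difference was not tested.

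*Meioc* encodes a partner of YTHDC2 that holds germ cells in meiotic prophase after they have entered it. It lies at chr11:102663716-102682237 on the forward strand. *Meioc* RNA was at 327, 242 and 181 CPM in controls 1 to 3. Among Rlim-KO libraries 1 to 4 the values were 221, 414, 136 and 166 CPM. The highest and the lowest library were both Rlim-KO, so that the control range lay within the Rlim-KO range. In limma the log2 fold change was -0.044 (SE 0.20, 95% interval -0.47 to 0.38, adjusted p = 1.00 by limma), with 0.10 within batch 2 and -0.27 within batch 1. The coefficient of variation between Rlim-KO libraries was 53.3%, where counting of 431 to 2076 reads gives 3.1%.

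*Meioc* differed between the batches. It was lower in batch 1 than in batch 2 by a log2 difference of -0.86 (SE 0.20, adjusted p = 0.0228, limma with Benjamini-Hochberg adjustment). It was the 1 gene of the 9 past the adjusted threshold for the batch, against 7.06% of all genes in either direction and 3.46% lower in batch 1. This call rested on single libraries. The adjusted p was 0.0627 without control 1, 0.106 without control 3, 0.130 without Rlim-KO 3 and 0.0555 without Rlim-KO 4, at log2 differences of -1.05 to -0.60 over the 7 libraries left out in turn. Under scaling by library totals it was 0.0786 at -0.61, and without control 1 and Rlim-KO 2 together it was 0.0924 at -0.50.

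The order of the libraries by *Meioc*, from Rlim-KO 2 over control 1, control 2, Rlim-KO 1, control 3 and Rlim-KO 4 to Rlim-KO 3, was the order of their scores on the first principal component, to which *Meioc* itself contributed. The summed level of 22 of 24 genes of early meiotic prophase took the same order, from 4115 CPM in Rlim-KO 2 and 3713 CPM in control 1 to 1953 CPM in Rlim-KO 3. *Ythdc2*, the gene for the MEIOC partner, was at 74.2, 67.0 and 53.6 CPM in controls 1 to 3. In Rlim-KO 1 to 4 it was at 73.8, 89.7, 39.4 and 48.5 CPM, again highest in Rlim-KO 2 and lowest in Rlim-KO 3. The sum over Sertoli cell markers was lowest in Rlim-KO 2 (819 CPM) and control 1 (835 CPM). The part of the cell types in the spread of *Meioc* was not tested.

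**Figure D2:**
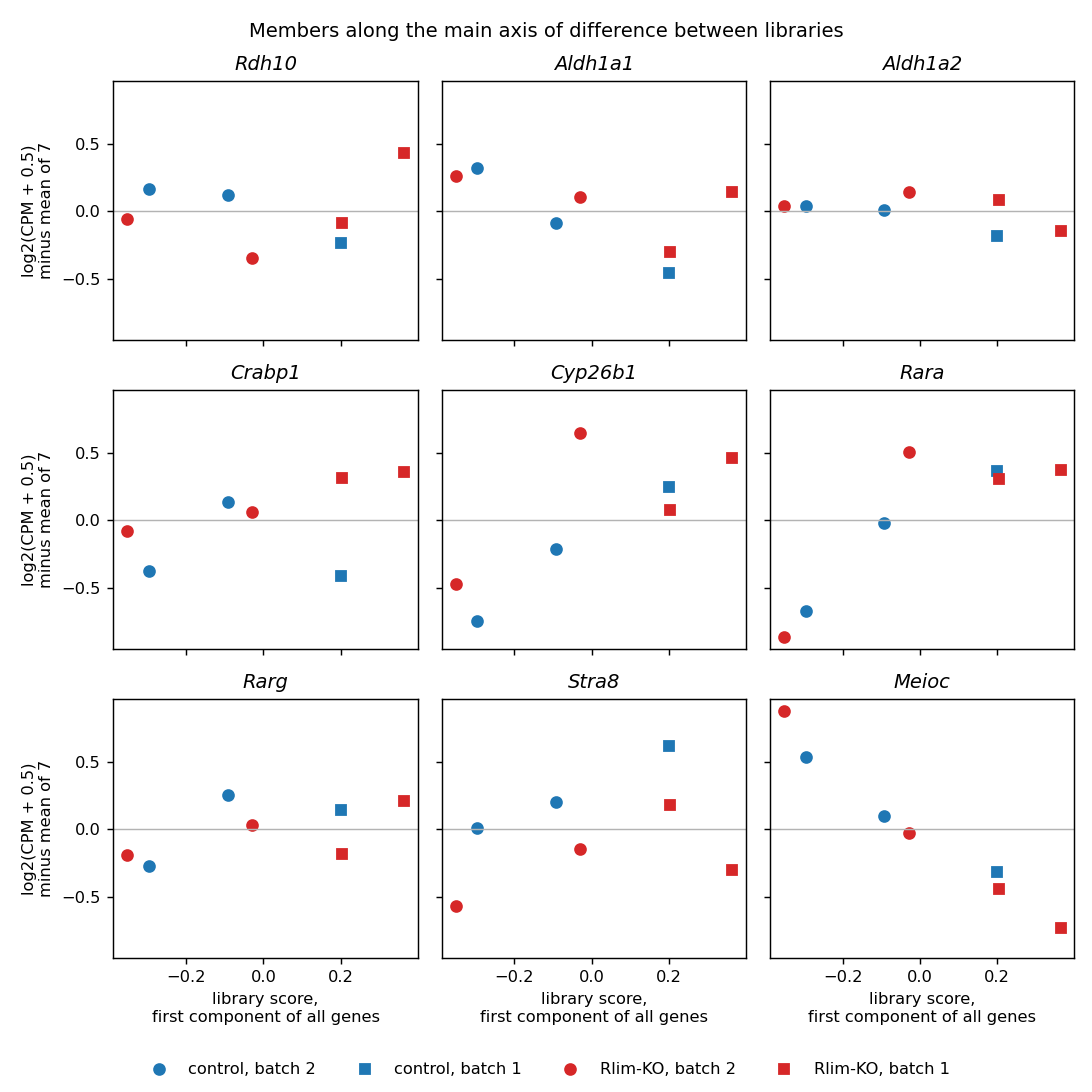
Each library's log2(CPM + 0.5) minus the mean of 7 libraries, against the library's score on the first principal component of 11996 genes, for each of the 9 genes (circles batch 2, squares batch 1). *Meioc* runs downwards from Rlim-KO 2 (score -0.352) to Rlim-KO 3 (score 0.364), while *Rara* and *Cyp26b1* are lowest in Rlim-KO 2 and control 1.

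*Rdh10*, the retinol dehydrogenase of the first step of synthesis, lies at chr1:16105774-16133734 on the forward strand. It was at 11.7, 11.3 and 8.75 CPM in controls 1 to 3. The values in Rlim-KO 1 to 4 were 8.06, 9.97, 14.2 and 9.74 CPM. Rlim-KO 1 was the lowest library and Rlim-KO 3 the highest, with the controls between them. The log2 fold change of -0.044 (SE 0.23, 95% interval -0.54 to 0.46, adjusted p = 1.00 by limma) joined -0.34 within batch 2 and 0.41 within batch 1. In batch 2 both Rlim-KO libraries were below both controls, and in batch 1 both were above the 1 control. The difference between the batches was 0.75 (SE 0.46, unadjusted p = 0.131, adjusted p = 1.00 by limma), and none of the 9 genes passed that test at either threshold, against 0.0103% of all genes at the adjusted and 2.08% at the unadjusted one.

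*Aldh1a1* and *Aldh1a2* encode retinaldehyde dehydrogenases of the last step of synthesis, of which the first is known from Sertoli cells and the second from spermatocytes. *Aldh1a1* (chr19:20492715-20643462, forward strand) was at 312, 236 and 182 CPM in controls 1 to 3. Libraries Rlim-KO 1 to 4 had 269, 300, 275 and 203 CPM. The Rlim-KO libraries all lay inside the control range. Its log2 fold change was 0.19 (SE 0.16, 95% interval -0.15 to 0.53, adjusted p = 1.00 by limma), with 0.065 within batch 2 and 0.38 within batch 1, where both Rlim-KO libraries were above the control. It was lower in batch 1 than in batch 2 by -0.39 on the log2 scale, at an unadjusted p of 0.0292 and an adjusted p of 0.150 by limma. This was -0.14 under scaling by library totals and -0.26 without control 3, and the unadjusted p was under 0.05 in 12 of 18 alternatives. *Aldh1a1* shares 4.86% of its 35-base words with *Aldh1a7*, a near copy, so a small part of its reads could be split between the 2 genes.

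*Aldh1a2* (chr9:71215789-71296243, forward strand) was the steadiest of the 9 genes. It was at 90.3, 88.2 and 77.4 CPM in controls 1 to 3. In Rlim-KO 1 to 4 it was at 97.1, 90.1, 79.4 and 92.7 CPM. The highest library was 1.25 times the lowest, and the groups overlapped. The difference on the log2 scale was 0.099 (SE 0.14, 95% interval -0.20 to 0.39, adjusted p = 1.00 by limma), the narrowest interval of the 9 genes.

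Per kilobase of exon, *Aldh1a1* made up 55.5 ± 4.74% (SD, n = 3) of the summed level of *Aldh1a1*, *Aldh1a2* and *Aldh1a3* in control and 56.6 ± 5.17% (SD, n = 4) in Rlim-KO testes. *Aldh1a2* made up 43.5 ± 4.71% and 42.8 ± 5.07%. *Aldh1a3*, the third enzyme of the family, made up 1.05 ± 0.0606% and 0.592 ± 0.163%. These shares depend on the length used, the union of all annotated exons. It is 4937 bases over 6 transcripts for *Aldh1a1* and 2264 bases in 1 transcript for *Aldh1a2*. Which transcripts were present was not tested. *Aldh1a3* was at 5.02, 4.04 and 3.71 CPM in controls 1 to 3 and at 2.48, 1.79, 2.83 and 2.91 CPM in Rlim-KO 1 to 4. All 4 Rlim-KO libraries lay below all controls, a pattern shared by 1.59% of all genes. Its log2 fold change was -0.69 (SE 0.29, unadjusted p = 0.0333, adjusted p = 1.00 by limma).

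*Cyp26b1* encodes the main retinoic acid hydroxylase of the testis, which is known from peritubular cells, and lies at chr6:84571414-84593908 on the reverse strand. It was at 12.3, 18.0 and 24.9 CPM in controls 1 to 3. Rlim-KO 1 to 4 stood at 32.9, 14.9, 29.0 and 22.1 CPM. The highest 2 libraries were Rlim-KO, and the lowest was control 1, followed by Rlim-KO 2. The mean was 18.4 ± 6.34 CPM (SD) over the controls and 24.7 ± 7.90 CPM (SD) over the Rlim-KO libraries. The log2 fold change was 0.35 (SE 0.25, 95% interval -0.20 to 0.89, unadjusted p = 0.194, adjusted p = 1.00 by limma), with 0.56 within batch 2 and 0.021 within batch 1. It depended on single libraries, being 0.015 without Rlim-KO 1, 0.16 without control 1, 0.56 without control 3 and 0.57 without Rlim-KO 2, the last with an unadjusted p of 0.0276 and an adjusted p of 0.785 (limma). The coefficient of variation of 34.5% in control and 31.9% in Rlim-KO libraries was above the 11.1% and 10% that counting gives. Markers of peritubular myoid cells (13 of 13 listed, none at 0) summed to 506 to 538 CPM in control libraries and 431 to 750 CPM in Rlim-KO libraries, lowest in Rlim-KO 2. Of these 13 genes, 8 had log2 fold changes below 0 and 5 above, with a median of -0.032, against 51.2% of all genes below 0. The 2 collagen genes among them were higher in Rlim-KO libraries at an unadjusted p under 0.05, against 1.22% of all genes. None of the 13 passed the adjusted threshold. *Col3a1* had a log2 fold change of 0.49 (SE 0.20, unadjusted p = 0.0281) and *Col1a1* of 0.83 (SE 0.35, unadjusted p = 0.0325), both with an adjusted p of 1.00 by limma. The part of these cells in the *Cyp26b1* values was not tested.

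*Crabp1*, a cytosolic protein that binds retinoic acid and is known from spermatogonia, lies at chr9:54764748-54773110 on the forward strand. It was close to the limit of detection, at 0.558, 1.01 and 0.530 CPM in controls 1 to 3. The values in Rlim-KO 1 to 4 were 0.931, 0.797, 1.26 and 1.20 CPM. Rlim-KO 3 and 4 were highest, and control 2 lay among the Rlim-KO libraries. These levels rest on 2 to 5 reads in control and 3 to 12 reads in Rlim-KO libraries. The log2 fold change of 0.36 (SE 0.39, 95% interval -0.46 to 1.19, adjusted p = 1.00 by limma) is held down by the pseudocount of 0.5 CPM, and was 0.53 with 0.1 CPM. The interval reached from 0.727-fold to 2.28-fold, so that a difference of this size was not detectable at this depth.

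*Rara* and *Rarg* encode nuclear receptors of retinoic acid, of which RARA is known from Sertoli cells and RARG from differentiating spermatogonia. *Rara* (chr11:98927818-98974942, forward strand) was at 8.92, 14.3 and 18.8 CPM in controls 1 to 3. In Rlim-KO 1 to 4 it was at 20.8, 7.77, 18.9 and 18.1 CPM. Rlim-KO 2 and control 1 were lowest, and the other 5 libraries reached from 14.3 to 20.8 CPM. Its log2 fold change was 0.089 (SE 0.28, 95% interval -0.51 to 0.69, adjusted p = 1.00 by limma). Between batches *Rara* was higher in batch 1 by 0.59 (SE 0.28, unadjusted p = 0.0511, adjusted p = 0.204 by limma), a value that fell to 0.069 without control 1 and Rlim-KO 2 and reached 0.95 with an adjusted p of 0.0130 without Rlim-KO 1.

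*Rarg* (chr15:102234938-102257517, reverse strand) was at 1.67, 2.63 and 2.39 CPM in controls 1 to 3. Among Rlim-KO libraries 1 to 4 the values were 2.17, 1.79, 2.52 and 1.81 CPM, so that every Rlim-KO library lay within the control range. With 7 to 18 reads a library, the coefficient of variation of 22.2% in control and 16.7% in Rlim-KO libraries was below the 31.5% and 34.2% that counting gives. In limma the log2 fold change was -0.096 (SE 0.32, 95% interval -0.78 to 0.59, adjusted p = 1.00 by limma). Per kilobase of exon, *Rara* made up 85.5 ± 2.58% (SD, n = 3) of the sum of both receptors in control and 87.5 ± 4.56% (SD, n = 4) in Rlim-KO testes.

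**Figure D3:**
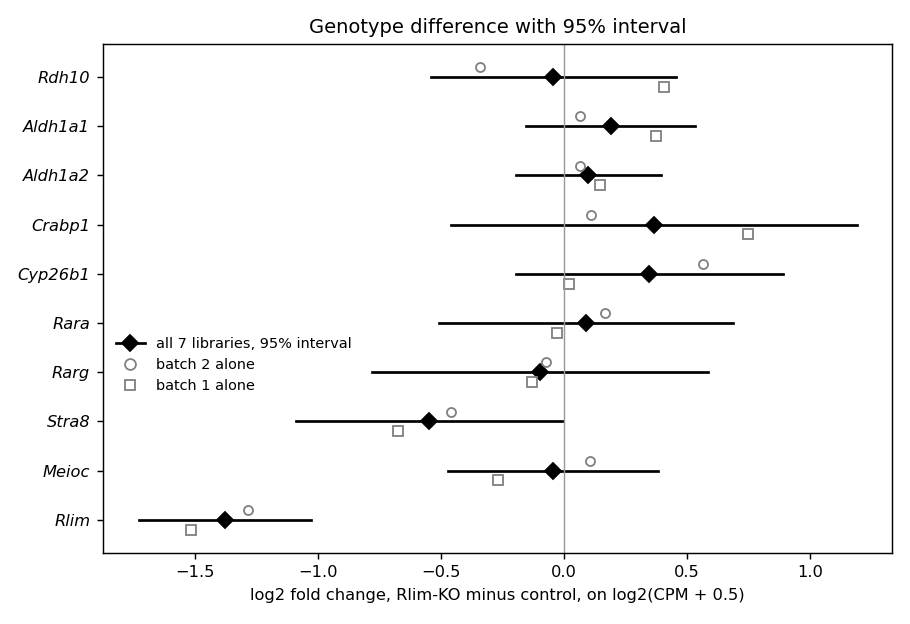
Log2 fold change of Rlim-KO over control on the log2(CPM + 0.5) scale for the 9 genes and *Rlim*, with the 95% interval from limma over 7 libraries (diamonds and lines) and the differences within batch 2 (circles) and batch 1 (squares). Apart from *Rlim* at -1.38, the interval of *Stra8* alone ends below 0, at -0.0035, and the within-batch values of *Rdh10*, *Meioc* and *Rara* fall on both sides of 0.

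Levels can be compared between genes only per length of exon. The length used is the union of annotated exons, which can exceed that of the transcripts present, so the order depends on it. On that scale *Meioc* was at 52.2 ± 21.3 CPM per kilobase (SD, n = 7), *Aldh1a1* at 51.4 ± 9.85 and *Aldh1a2* at 38.8 ± 3.13. The ranges of these 3 genes over the libraries overlapped. Within every library *Aldh1a1* was above *Aldh1a2*, most narrowly in Rlim-KO 4, at 49.7% against 49.5% of the *Aldh1a* sum. The range of *Meioc*, 29.4 to 89.6, held those of both, so that its place is not firm. Next came *Cyp26b1* at 4.11 ± 1.40, *Rara* at 3.52 ± 1.19, *Stra8* at 3.18 ± 0.93 and *Rdh10* at 2.53 ± 0.49 CPM per kilobase, again with overlapping ranges. *Crabp1* followed at 1.12 ± 0.36 and *Rarg* at 0.502 ± 0.0904 CPM per kilobase, and the highest *Rarg* library, at 0.616, was below the lowest of *Crabp1*, at 0.661. That gap lies within counting error. The lowest *Crabp1* value, from control 3, rests on 2 reads, with a Poisson interval of 0.0642 to 1.92 CPM around 0.530 CPM.

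For each gene the 3 genes with the closest pattern over the 7 libraries were found by Pearson's r of log2(CPM + 0.5) among 11996 genes of at least 5 CPM on average. These are descriptions over libraries that share depth, batch and the first principal component. Picking the highest of 11996 values over 7 libraries by itself gives a high r. The closest to *Stra8* were *Rpl14* (r = 0.974), Gm12378 (0.966) and *Ttll12* (0.964). *Meioc* was closest to *Atr* (r = 0.997), *Ube3a* (0.996) and *Ythdf3* (0.995). Among those of *Cyp26b1* were *Igf1r* (r = 0.991) and *Sptb* (0.987). For *Rara* these were *Slc52a2* (r = 0.998), *Mlxipl* (0.992) and *Nacc1* (0.991). For *Rarg* they were *Zgpat* (r = 0.983), *Blcap* (0.979) and *Reep3* (0.959), although *Rarg* itself spread no more than counting error. *Aldh1a1* was closest to 2610002M06Rik (r = 0.986), *Tob1* (0.978) and Gm44250 (0.965). Among those of *Aldh1a2* were *Gabpb2* (r = 0.961) and Gm21781 (0.958). For *Rdh10* the closest were *Slc48a1* (r = 0.977), *Naa38* (0.963) and 1700001P01Rik (0.963), and for *Crabp1* *Cdkn1c* (r = 0.972), *Ddx28* (0.969) and *Cdr2l* (0.959). Within groups *Crabp1* too spread no more than counting error, and the spread of *Stra8* was mostly of that size.

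The pathway around the 9 genes was read from 8 lists of 97 genes, of which 82 could be tested, the 9 genes included. Of these, 3 genes were lower in Rlim-KO testes (*Mei4*, *Aldh1a3* and *Stra8*) and 1 was higher (*Cyp26a1*) with an unadjusted p below 0.05, against 2.58% of all genes in either direction. None passed the adjusted threshold by limma. The median log2 fold change of the 82 genes was -0.032. The count of 4 moved to 10 without Rlim-KO 2, to 1 without control 1 and to 2 without control 2, control 3 or Rlim-KO 3.

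*Mei4*, needed for the DNA breaks of meiotic recombination, was at 2.05, 1.21 and 1.59 CPM in controls 1 to 3 and at 0.310, 0.797, 0.630 and 0.401 CPM in Rlim-KO 1 to 4. All 4 Rlim-KO libraries lay below all controls, which 1.59% of all genes did, at levels near that of 3 reads. *Mei4* passed the filter on low values only through the controls. Its log2 fold change was -1.04 (SE 0.39, unadjusted p = 0.0186, adjusted p = 1.00 by limma). *Cyp26a1*, the second retinoic acid hydroxylase, was at 0.744, 0.606 and 0 CPM in controls 1 to 3 and at 0.931, 1.59, 1.26 and 1.00 CPM in Rlim-KO 1 to 4. All 4 Rlim-KO libraries lay above all controls, which 1.34% of all genes did. The log2 fold change was 1.02 (SE 0.41, unadjusted p = 0.0267, adjusted p = 1.00 by limma), again from few reads. *Cyp26a1* passed the filter only through Rlim-KO libraries. The separation and the call of *Mei4* and *Cyp26a1* are thus not independent of the filter.

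**Figure D4:**
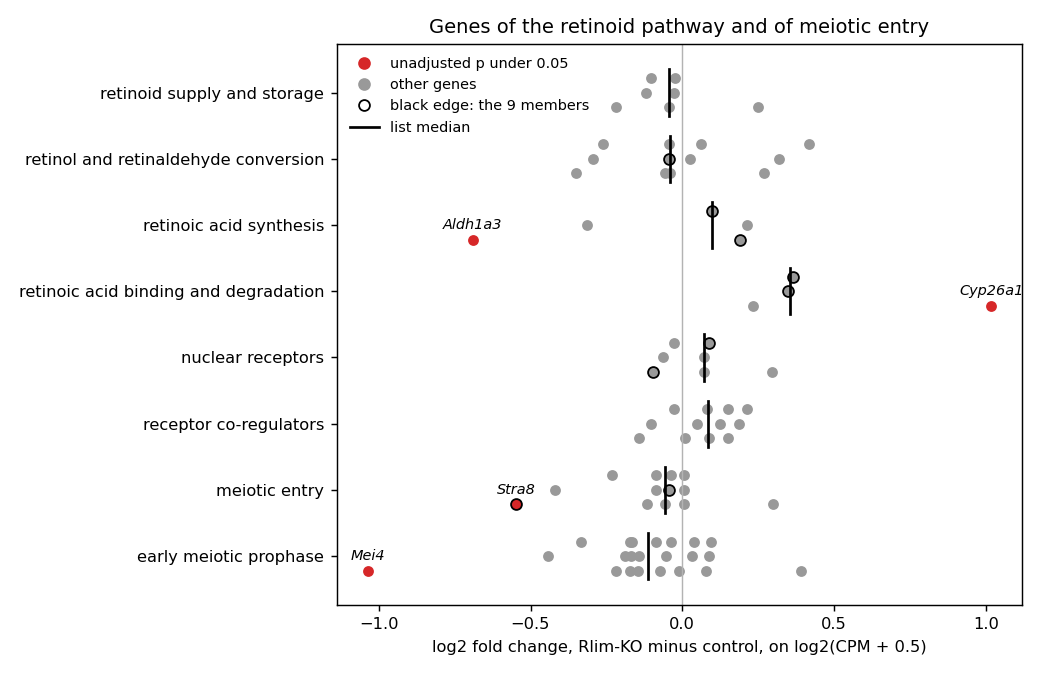
Log2 fold change of Rlim-KO over control on the log2(CPM + 0.5) scale for the 82 tested genes of 8 lists, 1 point per gene, with a black line at each list's median, black edges on the 9 genes and red for an unadjusted p under 0.05 by limma. List medians lie between -0.11 and 0.36, and the 4 named genes in red are the ones past the unadjusted threshold.

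By role, 4 of 7 chosen genes of binding and degradation could be tested (*Crabp1*, *Cyp26b1*, *Cyp26a1* and *Fabp5*). All 4 had fold changes above 0, with a median of 0.36 on the log2 scale and 1 at an unadjusted p under 0.05. Over all genes tested, 48.8% were above 0 and 1.22% were higher at that threshold. In batch 1 alone *Fabp5* was at -0.18. *Cyp26a1* passed the filter on low values only through Rlim-KO libraries, and *Crabp1* only through control 2, Rlim-KO 3 and Rlim-KO 4. The shared direction is thus not independent of the filter. Of the 5 genes of retinoic acid synthesis 2 were below 0 and 3 above, with a median of 0.099. *Aldh1a7*, after *Aldh1a3* the one with the smallest p, was at 14.2 ± 2.84 CPM (SD, n = 3) in control and 12 ± 3.47 CPM (SD, n = 4) in Rlim-KO testes. In retinoid supply and storage (7 tested, median -0.044) the smallest p belonged to *Lrat*, which esterifies retinol for storage, at 16.6 ± 4.06 CPM in control and 13.7 ± 2.67 CPM in Rlim-KO testes, and to *Stra6*, the retinol transporter, at 2.08 ± 0.81 and 2.95 ± 1.44 CPM. In retinol and retinaldehyde conversion (12 tested, median -0.041) it belonged to the alcohol dehydrogenases *Adh7*, at 2.34 ± 1.20 and 3.78 ± 1.63 CPM, and *Adh5*, at 14.2 ± 3.63 and 17.0 ± 0.74 CPM. None of these genes passed either threshold.

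Of 7 nuclear receptors (median 0.071) *Rxrb*, at 9.35 ± 1.47 CPM (SD, n = 3) in control and 11.5 ± 2.49 CPM (SD, n = 4) in Rlim-KO testes, and *Rxra*, at 25.8 ± 5.82 and 29.9 ± 9.51 CPM, had the smallest p. Both encode RXR partners of the retinoic acid receptors. Of 12 co-regulators (median 0.084) these were *Ncoa3*, a coactivator, at 32.6 ± 3.13 and 39.1 ± 5.64 CPM, and *Med1*, a Mediator subunit, at 125 ± 11.4 and 138 ± 16.6 CPM. None of these 4 genes passed either threshold for the genotype.

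Of 13 tested genes of meiotic entry 9 were below 0 and 4 above, with a median of -0.056. After *Stra8* the smallest p belonged to *Kit*, the receptor of differentiating spermatogonia, at 19.4 ± 1.21 CPM (SD, n = 3) in control and 25.5 ± 8.16 CPM (SD, n = 4) in Rlim-KO testes, which passed neither threshold. Gm4969, the gene for the STRA8 partner MEIOSIN, was at 8.18, 9.90 and 10.1 CPM in controls 1 to 3 and at 16.8, 4.38, 11.3 and 8.13 CPM in Rlim-KO 1 to 4. Unlike *Stra8*, it was highest in a Rlim-KO library, and the control range lay within the Rlim-KO range. Of 22 genes of early meiotic prophase 16 were below 0 and 6 above, with a median of -0.11 and 1 past the unadjusted threshold, *Mei4*. Over all genes tested, 51.2% were below 0 and 1.37% were lower at that threshold. Within batch 2, 12 of the 22 genes were below 0, and within batch 1 it was 20 of them, against 49.8% and 52.1% of all genes. Batch 1 holds 1 control library, and the 22 genes share the same libraries, so they are not independent observations. In that batch their sum was 2655 CPM in control 3, 1953 CPM in Rlim-KO 3 and 2592 CPM in Rlim-KO 4. *Tex12*, of the synaptonemal complex, was next at 13.0 ± 6.25 and 8.59 ± 5.90 CPM, and passed neither threshold for the genotype. Their summed level of 2655 to 3713 CPM in control and 1953 to 4115 CPM in Rlim-KO libraries overlapped.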

How the data were processed

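The table deposited by the authors gives a signal of CPM for 19719 genes in 7 testis libraries, on GRCm38 (processing notes of the submitters: HISAT2 2.1.0, featureCounts and edgeR, while the study's methods name TopHat and HTSeq). The values of up to 1000 reads, 17853 to 19355 a library, were checked, and all equalled a whole number of reads (tolerance 0.001), with library sizes equal to those from TMM in edgeR, so reads were recovered for alternatives. Genes above 1 CPM in at least 3 libraries (19400) were compared on log2(CPM + 0.5) in limma 3.58.1 (R 4.3.3) with a variance trend and the batch as covariate, two-sided, with Benjamini-Hochberg adjustment and a threshold of 0.05. A fold change on this scale understates the change of low genes. Within-batch values are differences of mean log2(CPM + 0.5). The genotype-by-batch test was 1 further coefficient. The fit was tested on simulated data. Alternatives used edgeR 4.0.16, DESeq2 1.42.0, other scalings, filters, pseudocounts and samples. The alternatives of the batch comparison, and leaving out control 1 and Rlim-KO 2 together, were added after seeing the data. The members and lists were chosen with earlier results of these data known. The genes named are the 9 genes, *Rlim*, those of each pathway list at an unadjusted p under 0.05 and otherwise the 2 with the smallest p, and the 3 closest genes by correlation, of which 2 are not reported here. *Ythdc2*, Gm4969, *Fabp5*, *Aldh1a7*, *Kit*, *Tex12*, *Dmrtb1*, *Ccnd2*, *Col3a1*, *Col1a1* and *mt-Rnr2* were named after their values were seen. Exonic lengths are unions of exons of GENCODE M21, and 35-base words were compared with its transcripts in Python 3.11.15. Poisson intervals are exact and cover counting error only.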

Additional observations from a re-analysis of the deposited data

How the results depend on the processing

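*Stra8* stayed lower in Rlim-KO testes and short of the adjusted threshold under all 24 alternatives (log2 fold change -0.677 to -0.454). *Cyp26b1*, *Aldh1a1*, *Aldh1a2* and *Crabp1* kept their directions under all alternatives run, with *Aldh1a1* at 0.065 to 0.321, *Aldh1a2* at 0.056 to 0.133, *Crabp1* at 0.108 to 0.557 and *Cyp26b1* at 0.0146 to 0.57 when single libraries were left out. None of the 9 genes passed the adjusted threshold for the genotype in any. *Crabp1* and *Rarg* have no value under the filter of a mean of at least 5 CPM.

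The sign turned for 4 genes with fold changes near 0. *Meioc* was at 0.105 in batch 2 alone and at -0.307 to 0.144 with single libraries left out. *Rara* was at -0.0267 in batch 1 alone and at -0.271 to 0.411 with single libraries left out. *Rarg* was at -0.233 to 0.0292 with single libraries left out. *Rdh10* was at 0.405 in batch 1 alone, at 0.0331 without control 1 and Rlim-KO 2, and at -0.343 to 0.104 with single libraries left out.

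The count of genes past the adjusted threshold (1, *Rlim*) was 0 without a variance trend, without the batch term, in batch 2 alone and with the replicate block, 28 in batch 1 alone, 10 by the likelihood ratio test of edgeR, and 0 to 3 with single libraries left out. At an unadjusted p under 0.05, these 4 settings with 0 gave 380, 163, 192 and 196 genes lower and 362, 171, 135 and 160 higher. In the same 4 settings the adjusted p of *Rlim* was 0.815, 0.921, 0.872 and 0.307 by limma, at log2 fold changes of -1.38, -1.47, -1.29 and -1.35. The count of list genes at an unadjusted p under 0.05 (4) was 0 with a mean of at least 5 CPM, 0 with the replicate block, 2 in batch 2 alone, 0 by DESeq2, and 1 to 10 with single libraries left out. The lower level of *Meioc* in batch 1 missed the adjusted threshold under scaling by library totals (-0.613), without a variance trend (-0.859), without control 1 and Rlim-KO 2 (-0.498), and without any one of 4 single libraries (-1.05 to -0.596 over the 7). That scaling also brought *Rara* past that threshold for the batch, at 0.833. The causes were not tested.

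The replicate numbers were not treated as pairs, since same-numbered libraries deviated together at correlations of only 0.101, 0.066 and 0.392 across genes. With the replicate number as a block in place of the batch, *Stra8* was at -0.612 (adjusted p = 1.00 by limma). Control 1 correlated best with Rlim-KO 2 (0.474).

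Within groups, the spread of *Crabp1*, *Rarg* and *Stra8* was near or below counting error, and that of *Meioc*, *Rara*, *Cyp26b1*, *Aldh1a1* and *Aldh1a2* was above it. *Rdh10* was above it in Rlim-KO libraries (24.8% against 15%) and near it in control libraries (15.2% against 14.2%).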
